A study of Mus musculus with 2 samples.

Results

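The CXC chemokines described here are 10 genes of the mouse uterus, Cxcl1, Cxcl2, Cxcl5, Cxcl9, Cxcl10, Cxcl12, Cxcl14, Cxcl15, Cxcl16 and Cxcl17, chosen by symbol and each found as 1 row among the 32285 genes of both count matrices. Single cells of whole uteri from female mice aged 6 months were profiled with droplets that tag the 3-prime ends of transcripts. Mice of the control group (Prickle1 f/f) bore floxed alleles of Prickle1, a planar cell polarity gene, and the conditional knockout (cKO) group carried these alleles with a Cre recombinase driven by Ltf (Prickle1 f/f Ltf-cre). Ltf encodes lactoferrin and is transcribed in the uterine epithelium, so the deletion is aimed at 1 compartment, while a genotype entry in the labels calls both samples C57BL/6J wild-type and so does not match their titles. Each group was 1 library from 3 pooled mice, so no difference below has a replicate check, and genotype, animals, digestion and library cannot be told apart. All intervals are 95% intervals and cover counting error only.

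Chemokines are small secreted proteins that guide leukocytes through G protein-coupled receptors. The members with a Glu-Leu-Arg motif before the CXC cysteines (Cxcl1, Cxcl2 and Cxcl5 among them) draw neutrophils through Cxcr2, and their transcription follows NF-kappaB, IL-1, TNF and IL-17 signals. Cxcl9 and Cxcl10 draw activated T and NK cells through Cxcr3 and follow interferon, Cxcl12 retains leukocytes and progenitors through Cxcr4 and is cleared by Ackr3, and Cxcl16 is a membrane-anchored ligand of Cxcr6. Cxcl14 and Cxcl17 are made by epithelia and stroma, with receptors that are less settled.

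Sequence upstream of the inducible genes is shown because Cxcl1 and Cxcl2 were found in the same cells and Cxcl10 was lower in cKO in 6 of 7 cell classes. Promoters were matched by symbol to RefSeq on GRCm38.p6 for 7 of the 10 members, which leaves out Cxcl5, Cxcl16 and Cxcl17. Each stretch covers 220 bases, from 250 to 31 bases before the RefSeq start of the gene, 5-prime to 3-prime on the strand of the gene. Capitals mark matches on either strand to GGGNNNTTCC or GGGNNTTCC, written after NF-kappaB sites, or to GAAANNGAAA, written after the interferon-stimulated response element, and overlapping matches run together. The stretches lie at chr5:90890995-90891214 (plus strand, Cxcl1), chr5:90903649-90903868 (plus, Cxcl2) and chr5:92348920-92349139 (minus, Cxcl10). The RefSeq start lies 4 bases after the GENCODE start given further on for Cxcl1, 28 bases after it for Cxcl2, and at the same base for Cxcl10, and distances of matches are from the RefSeq start.
Cxcl1: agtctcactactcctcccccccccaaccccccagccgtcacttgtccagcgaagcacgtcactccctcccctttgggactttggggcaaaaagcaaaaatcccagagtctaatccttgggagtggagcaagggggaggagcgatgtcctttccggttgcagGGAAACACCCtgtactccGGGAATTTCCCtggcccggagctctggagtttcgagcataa
Cxcl2: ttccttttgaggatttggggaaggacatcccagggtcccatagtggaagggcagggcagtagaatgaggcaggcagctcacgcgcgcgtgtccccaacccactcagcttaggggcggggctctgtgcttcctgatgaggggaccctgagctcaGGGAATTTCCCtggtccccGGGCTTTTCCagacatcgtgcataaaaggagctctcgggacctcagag
Cxcl10: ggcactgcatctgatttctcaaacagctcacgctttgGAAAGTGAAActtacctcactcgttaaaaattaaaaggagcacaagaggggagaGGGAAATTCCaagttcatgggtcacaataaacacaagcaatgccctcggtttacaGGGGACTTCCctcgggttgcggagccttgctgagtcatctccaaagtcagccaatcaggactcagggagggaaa

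In these letters Cxcl1 and Cxcl2 shared the match GGGAATTTCC, which began 71 bases before the RefSeq start of Cxcl1 and 97 bases before that of Cxcl2. Cxcl1 also matched on the minus strand at GGAAACACCC, and Cxcl2 held a further match, GGGCTTTTCC. Cxcl10 held GAAAGTGAAA, beginning 213 bases before its start, together with GGGAAATTCC and GGGGACTTCC. Cxcl9 held GGGTTTTCC and GGGATTTCC in its stretch, Cxcl14 held GAAACAGAAA, and no match was found for Cxcl12 and Cxcl15. Over 32851 promoters of the same length, 2.63% held GAAANNGAAA, 4.2% held GGGNNTTCC and 3.84% held GGGNNNTTCC. A match is a description of letters and not a bound site.

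Barcodes were kept as cells if 500 genes or more were detected and no more than 20% of their UMIs (unique molecular identifiers) were mitochondrial, which gave 3653 control cells with a median of 4650 UMIs and 4950 cKO cells with a median of 5944. The libraries held 45035801 and 57145553 UMIs in all, and 5 cell barcodes occurred in both. Classes were gated on 1 or 2 genes, Epcam (epithelial), Pdgfra (stromal), Actg2 (muscle), C1qa (macrophage), Flt3 (dendritic), Cd3e or Ncr1 (lymphoid) and Msln (mesothelial), each with 0 UMIs of the other gate genes. The epithelial gate held 943 control and 100 cKO cells, 25.8% and 2.02% of the cells, and the stromal gate 620 and 1462. The other gates held 25 to 531 cells a library, and 31.8% and 37.7% of cells met no gate. Each list of cell type markers was highest in its own gate, except that stromal markers were higher in the cKO mesothelial gate (14788 CPM, counts of UMIs per 1000000 UMIs of the class) than in the cKO stromal gate (12451). The cKO epithelial and lymphoid gates also held B or plasma cell markers, 1683 and 490 CPM against 1.13 and 1.35 in control, and 37.5% of cKO epithelial UMIs came from its 5 deepest cells. Their part in the results was not tested.

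Levels are CPM of the summed cells of a class. A UMI is 1 molecule whatever the transcript's length, so levels of different chemokines are set side by side directly. Macrophages held the highest level of Cxcl1, Cxcl2, Cxcl5, Cxcl10 and Cxcl16 in both libraries, and epithelial cells that of Cxcl17. The order was led by Cxcl2, at 8436 CPM in control and 10911 CPM in cKO macrophages. The next members were Cxcl10 (1812 and 1101 CPM) and Cxcl1 (1274 and 2311 CPM) in the same cells. Cxcl15 (ENSMUSG00000029375), a member first known from lung, had 2 UMIs in all control cells and 1 in all cKO cells and is not described further.

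**Figure D1:**
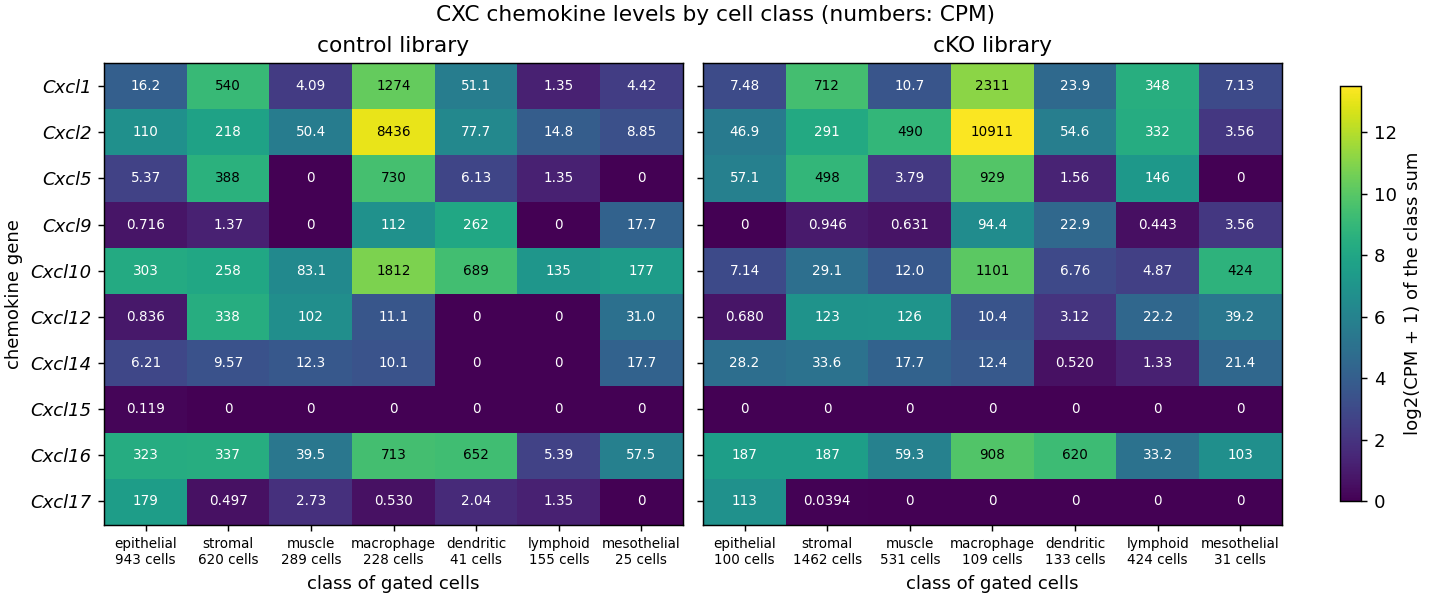
Level of each CXC chemokine (rows) in each class of gated cells (columns, with the number of cells) in the control (left) and cKO (right) library; colour is log2(CPM + 1) of the class sum and the numbers are CPM. Cxcl2 in macrophages is the brightest cell in both panels, at 8436 and 10911 CPM, and Cxcl10 is lower in cKO in every class but the mesothelial.

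Over all cells of a library, 3 of the 9 members with at least 20 UMIs were at least 2-fold higher in cKO and 3 at least 2-fold lower, where 13.1% and 12.7% of 16921 genes were. Cxcl1 stood at 240.7 CPM in control and 543.7 CPM in cKO, Cxcl5 at 167 and 337 CPM, and Cxcl14 at 7.48 and 22.3 CPM. Cxcl1 fell under 2-fold by per-cell means (log2 ratio of 0.84), and Cxcl5 with TMM scaling factors (0.81). The 3 lower members were Cxcl10 (398 and 51.9 CPM), Cxcl17 (92.8 and 7.09 CPM) and Cxcl9 (12.7 and 4.82 CPM). Cxcl2, Cxcl12 and Cxcl16 lay within 2-fold. The median log2 ratio was -0.21 over these members and 0.26 over all genes. These values add the mix of cells to the level in each class: Cxcl17 was 13.1-fold lower over all cells and 1.58-fold lower within the summed epithelial cells. The share of UMIs from stromal cells was 47.9% in control and 62.8% in cKO for Cxcl1, and 49.5% and 70.8% for Cxcl5.

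**Figure D2:**
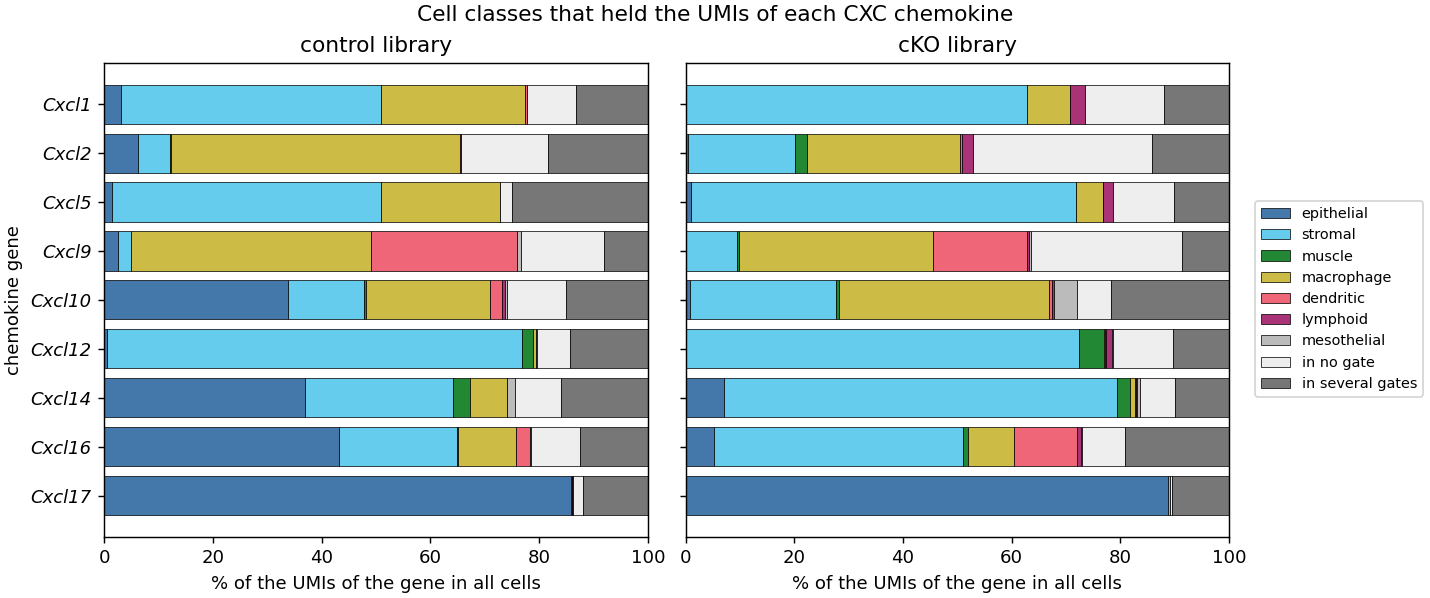
Share of each chemokine's UMIs over all cells of a library (x axis, %) that came from each class, from cells in no gate and from cells in several gates, for control (left) and cKO (right). Epithelial cells held 33.8% of Cxcl10 UMIs and 43.2% of Cxcl16 UMIs in control, against 0.764% and 5.30% in cKO, and stromal cells held most Cxcl1, Cxcl5 and Cxcl12 UMIs in cKO.

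Within classes, the members at least 2-fold different were spread unevenly. In epithelial cells 2 of 7 members with at least 20 UMIs were at least 2-fold higher in cKO and 3 lower, against 25.1% and 10.5% of 12568 genes (35.6% in either direction). In stromal cells 1 of 8 was higher and 2 were lower, against 6.13% and 6.70% of 13490 genes. Macrophages had none of 8 past 2-fold in either direction, against 10.0% higher and 4.86% lower of 7689 genes. In dendritic cells none of 5 was higher and 3 were lower (19.1% and 5.21% of 7600 genes, 24.3% in either direction). In muscle cells 2 of 6 were higher and 1 lower (8.48% and 3.59% of 8822 genes). In lymphoid cells 5 of 6 were higher and 1 lower (7.83% and 3.20% of 9184 genes), and in mesothelial cells 1 of 2 was higher and none lower (11.6% and 3.95% of 4283 genes). Most cKO lymphoid UMIs of Cxcl1, Cxcl5 and Cxcl12 lay in 1 cell (98.7%, 97.6% and 96.0%), described further on. The median log2 ratio of the members that passed was -0.79 in epithelial, -0.09 in stromal, 0.33 in macrophage, -1.09 in dendritic and 3.56 in lymphoid cells, where the medians of all genes were 0.36, -0.02, 0.17, 0.32 and 0.15.

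**Figure D3:**
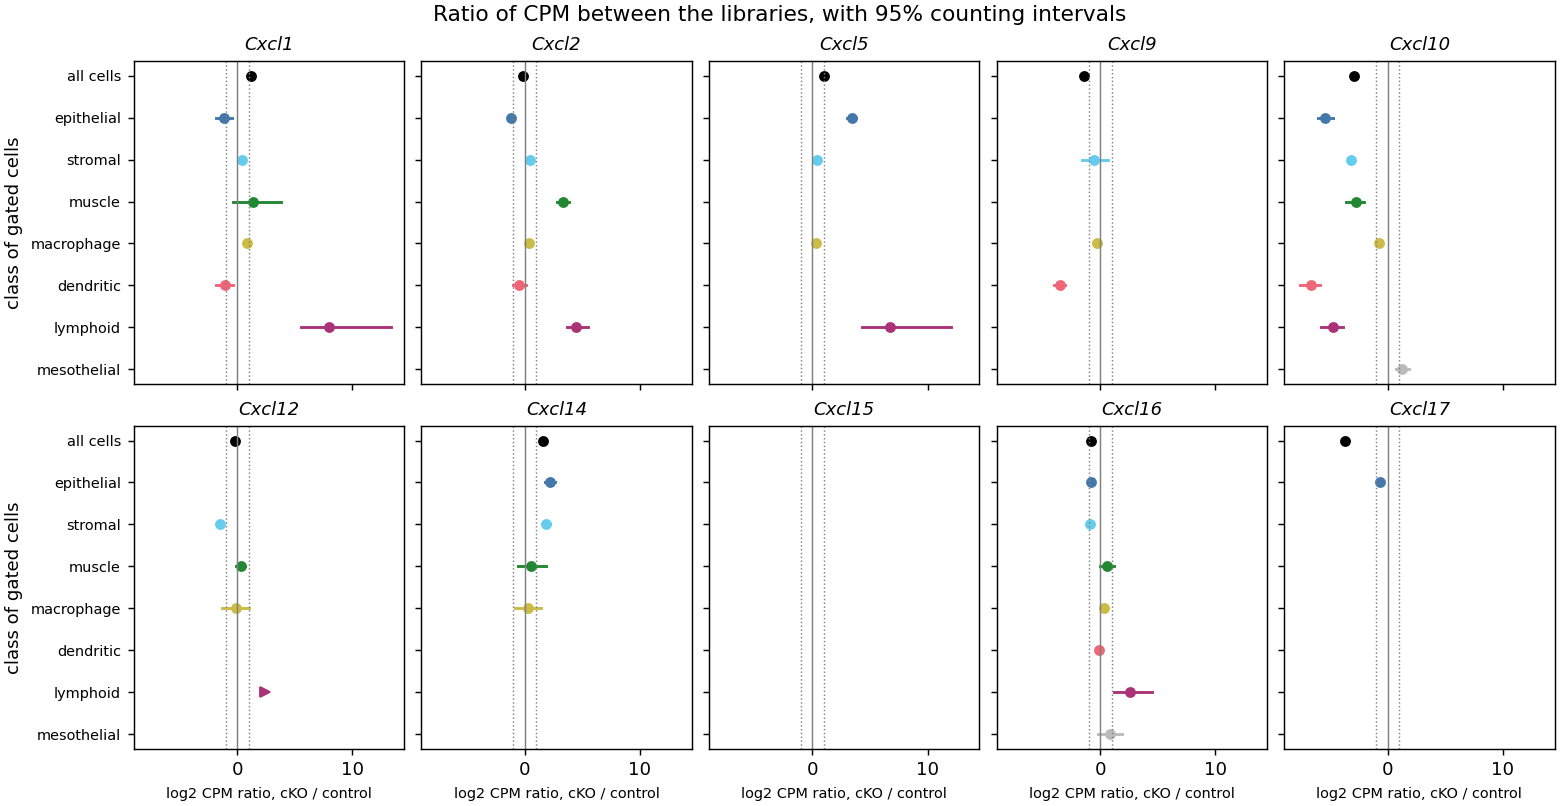
Log2 ratio of CPM, cKO over control (x axis), for each chemokine in all cells and in each class; points are ratios, lines their 95% counting intervals, the triangle a lower bound against a count of 0, and dotted lines mark 2-fold. Members with under 20 UMIs over both libraries are left out, Cxcl15 among them. Cxcl10 lies left of the lower dotted line in epithelial, stromal, muscle, dendritic and lymphoid cells and right of the upper one in mesothelial cells.

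The neutrophil attractants lie together on chromosome 5 of GRCm38. Cxcl5 (ENSMUSG00000029371) spans chr5:90759360-90761624, Cxcl1 (ENSMUSG00000029380) chr5:90891241-90893115 and Cxcl2 (ENSMUSG00000058427) chr5:90903871-90905938, all on the plus strand. In macrophages Cxcl1 had 2403 UMIs in control (1274 CPM, 1224 to 1326) and 2228 in cKO (2311 CPM, 2216 to 2409), a ratio of 1.81 (1.71 to 1.92). Cxcl2 had 15906 UMIs in control and 10518 in cKO, a ratio of CPM of 1.29 (1.26 to 1.33). Cxcl5 had 1376 and 896 UMIs, 729.8 and 929 CPM, with a ratio of 1.27 (1.17 to 1.39). All 3 were higher in cKO macrophages beyond counting error and under 2-fold. With cells kept in every class whose gate they met, Cxcl2 and Cxcl5 turned lower, at log2 ratios of -0.09 and -0.31. Of the 9 genes of the dissociation stress list, 3 were at least 2-fold higher in cKO macrophages, 1 was lower and 5 lay within 2-fold, against 10.0% higher and 4.86% lower of all genes, with the heat shock gene Hspa1a at 286 CPM in control and 1698 CPM in cKO. The uteri were digested for 5 hours, and the part of that step in these levels was not tested.

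The attractants differed in how many macrophages carried them. After each cell was thinned to 1000 UMIs, 72.4% of control macrophages (66.1 to 78.2) and 77.8% of cKO macrophages (68.8 to 85.2) had a Cxcl2 UMI. For Cxcl1 the shares were 27.6% and 34.3%, and for Cxcl5 6.22% and 8.33%, so most macrophages held Cxcl2 and few held Cxcl5. Lymphoid cells, taken as background, had a Cxcl2 UMI in 0.654% (control) and 1.43% (cKO) of thinned cells. Before thinning 78.1% of control and 80.7% of cKO macrophages had Cxcl2 (medians of 7930.5 and 7997 UMIs per cell), as did 2.58% and 5.66% of lymphoid cells (medians of 4203 and 4497). Among thinned control macrophages with a Cxcl1 UMI, 60 of 62 also had Cxcl2, 96.8% (88.8 to 99.6), against 63.2% (55.3 to 70.6) of those without. In cKO these shares were 97.3% and 67.6%. The 13 control macrophages with at least 10 Cxcl5 UMIs held 98.5% of the Cxcl5 UMIs of that class, and 9 cKO macrophages held 98.8%. These 9 had 659 CPM of stromal and 3221 CPM of macrophage markers, against 87.0 and 6040 CPM in the other cKO macrophages, while the 13 control cells had 27.4 and 4850 CPM.

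In stromal cells Cxcl1 had 4349 UMIs in control (540.5 CPM) and 18056 in cKO (712 CPM), a ratio of 1.32 (1.27 to 1.36). Cxcl5 stood at 388 and 498 CPM, a ratio of 1.28 (1.23 to 1.33), and Cxcl2 at 218 and 291 CPM, a ratio of 1.33 (1.27 to 1.40). All 3 ratios were above 1 and under 2-fold. A minority of cells held most of these UMIs. In control, 72 of 620 stromal cells had at least 10 Cxcl1 UMIs and held 92.8% of all its stromal UMIs, and in cKO 222 of 1462 held 95.9%. For Cxcl5, 34 control cells held 97.5% and 128 cKO cells held 97.6%. Cxcl2 turned lower in cKO stroma, at a log2 ratio of -0.42, when cells were kept in every class whose gate they met, and at -0.03 with at least 2 UMIs of the gate gene.

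Stromal cells with 1 attractant held the others more often than cells without it, in shares over cells of 1 library each, which are not replicates. In thinned control stromal cells 21 of 34 with Cxcl5 also had Cxcl1, 61.8% (43.6 to 77.8), against 11.1% (8.66 to 14.0) of cells without Cxcl5. In cKO 70 of 134 did, 52.2% (43.4 to 60.9), against 11.8% (10.1 to 13.7). Il6, which encodes a cytokine of the same inducible set, was found in 24.7% of control stromal cells with Cxcl1 and 4.57% of those without, and in 37.2% and 8.33% in cKO. Stromal markers were present in the carriers. Cells with at least 10 Cxcl1 UMIs had 11045 CPM of stromal markers in control and 14193 CPM in cKO, against 12230 and 12083 CPM in the remaining stromal cells. In control, carriers of at least 10 Cxcl5 UMIs also had 1650 CPM of the lymphatic list (Lyve1, Prox1 and Ccl21a), against 6.80 CPM in the other stromal cells. Those of at least 10 Cxcl1 UMIs had 840 against 4.36 CPM of that list, and those of at least 10 Cxcl12 UMIs 624 against 6.31 CPM. The other cells held almost none of the list in each of these splits, so the values count mostly the same UMIs. How many cells held them was not counted. Control carriers of at least 10 Cxcl2, Cxcl10 or Cxcl16 UMIs had less, 0, 23.1 and 3.37 CPM, against 159, 156 and 200 CPM in the other cells. Ccl21a made up 110.6 of the 149 CPM of that list in the class.

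Cells in no gate were another source. They held 15.9% of control and 33.0% of cKO Cxcl2 UMIs, at 1033 and 1224 CPM. In cKO 65 of 1865 such cells had at least 10 Cxcl2 UMIs and held 98.2% of this, and they carried 6024 CPM of lymphatic and 884 CPM of blood endothelial markers, against 343 and 232 CPM in the rest. Their dendritic markers were at 1506 CPM, against 570 CPM. The 43 ungated cKO cells with at least 10 Cxcl1 UMIs likewise had 6727 CPM of lymphatic markers. In control the 40 ungated cells with at least 10 Cxcl2 UMIs had 933 CPM of the neutrophil list (S100a8, S100a9, Retnlg, Csf3r and Mmp8), 855 CPM of lymphatic markers and 2911 CPM of dendritic markers, against 17.7, 662 and 1424 CPM in the other ungated cells. Cxcl1 in ungated cells was at 176 CPM in control and 414 CPM in cKO, and Cxcl5 at 30.6 and 200.3 CPM. In both libraries macrophage markers were higher in the ungated Cxcl2 carriers than in the other ungated cells, at 517 against 57.2 CPM in control and 172 against 18.2 CPM in cKO, as were dendritic markers. The neutrophil list was at 933 CPM in control and 44.1 CPM in cKO carriers, and lymphatic markers at 855 and 6024 CPM.

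Smaller classes gave larger ratios that rested on few cells. Lymphoid cells had 1 Cxcl1 UMI in control and 785 in cKO, 1 and 330 UMIs of Cxcl5, 11 and 750 of Cxcl2, and 0 and 50 of Cxcl12. A single cKO cell of 25010 UMIs held 775 of the Cxcl1, 684 of the Cxcl2, 322 of the Cxcl5 and 48 of the Cxcl12 UMIs. That cell had 1 Cd3e UMI and 74 UMIs of stromal markers. Without the leading cell of each library, Cxcl1 had 0 and 10 UMIs and Cxcl5 0 and 8, Cxcl12 had 0 and 2, and Cxcl2 had 3 and 66, a ratio of 7.19 (2.36 to 35.8). Of the 5 higher lymphoid members, Cxcl2 and Cxcl16 were past 2-fold without the leading cells, while the control counts of 0 allow only lower bounds of 1.09 for Cxcl1, 0.881 for Cxcl5 and 0.220 for Cxcl12. In cKO 3 lymphoid-gate cells with at least 10 Cxcl2 UMIs, the leading cell among them, held 97.2% of its UMIs. They had 1971 CPM of dendritic, 1042 CPM of stromal and 873 CPM of lymphoid markers, against 345, 91.9 and 3175 CPM in the others. Lymphoid Cxcl16 had 4 UMIs in control and 75 in cKO, at a ratio of 6.17 (2.31 to 23.2), and its 75 UMIs lay in 11 of 424 cells. The 3 of these with at least 10 UMIs held 53.3% of them and had 6445 CPM of dendritic and 993 CPM of lymphoid markers, against 238 and 3157 CPM in the other cKO lymphoid-gate cells. After thinning 0 control and 3 cKO UMIs were left, too few to read.

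Muscle cells held Cxcl2 in few cells as well, with 37 UMIs in control (50.4 CPM) and 776 in cKO (490 CPM), a ratio of 9.71 (6.98 to 13.9). In control 34 of the UMIs came from 1 cell. In cKO 4 of 531 cells held 97.7% of them, and these 4 had 670 CPM of macrophage, 1721 CPM of dendritic and 939 CPM of muscle markers, where the other muscle-gate cells had 7.14, 315 and 8488 CPM. Without the leading cells 3 and 440 UMIs were left, a ratio of 68.4 (23.2 to 333). By per-cell means and thinned the log2 ratio was 0.38 and 0.35, with at least 1000 genes per cell 7.32, and it was reversed, at -1.08, when cells were kept in every class whose gate they met. Cxcl1 in muscle cells had 3 and 17 UMIs, a ratio of 2.62 (0.759 to 14.0) that counting error alone could span. Dendritic Cxcl1 had 25 UMIs in control, 23 of them in 1 cell, and 46 in cKO. Its ratio of 0.468 (0.282 to 0.795) became 3.52 (0.887 to 30.5) without the leading cells.

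Epithelial cells held little of the attractants. Cxcl2 had 1844 UMIs in control (110.1 CPM) and 138 in cKO (46.9 CPM), 2.35-fold lower (1.97 to 2.81), and Cxcl1 272 and 22 UMIs, 2.17-fold lower (1.40 to 3.52). A single control cell held 123 of the 272 Cxcl1 UMIs, and without the leading cells the Cxcl1 ratio was 0.686 (0.396 to 1.12), under 2-fold and with an interval that spans 1. Cxcl1 and Cxcl2 turned higher in cKO when cells of several gates were kept in each (log2 ratios of 1.59 and 0.42) or when cells were thinned (0.64 and 0.16, from 2 and 10 cKO UMIs). Cxcl5 was higher in cKO, with 90 and 168 UMIs, 5.37 and 57.1 CPM, but 121 of the 168 came from 1 cell. Without the leading cells its ratio was 3.83 (2.60 to 5.59) in place of 10.6 (8.19 to 13.9). In cKO 3 cells with at least 10 UMIs, of a median depth of 275625 UMIs, held 94.0% of them. By per-cell means the log2 ratio was 0.66, under 2-fold. A Cxcl5 UMI was found in 1 of 100 thinned cKO epithelial cells (1.00%) and 3 of 936 control ones (0.321%), with overlapping intervals.

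**Figure D4:**
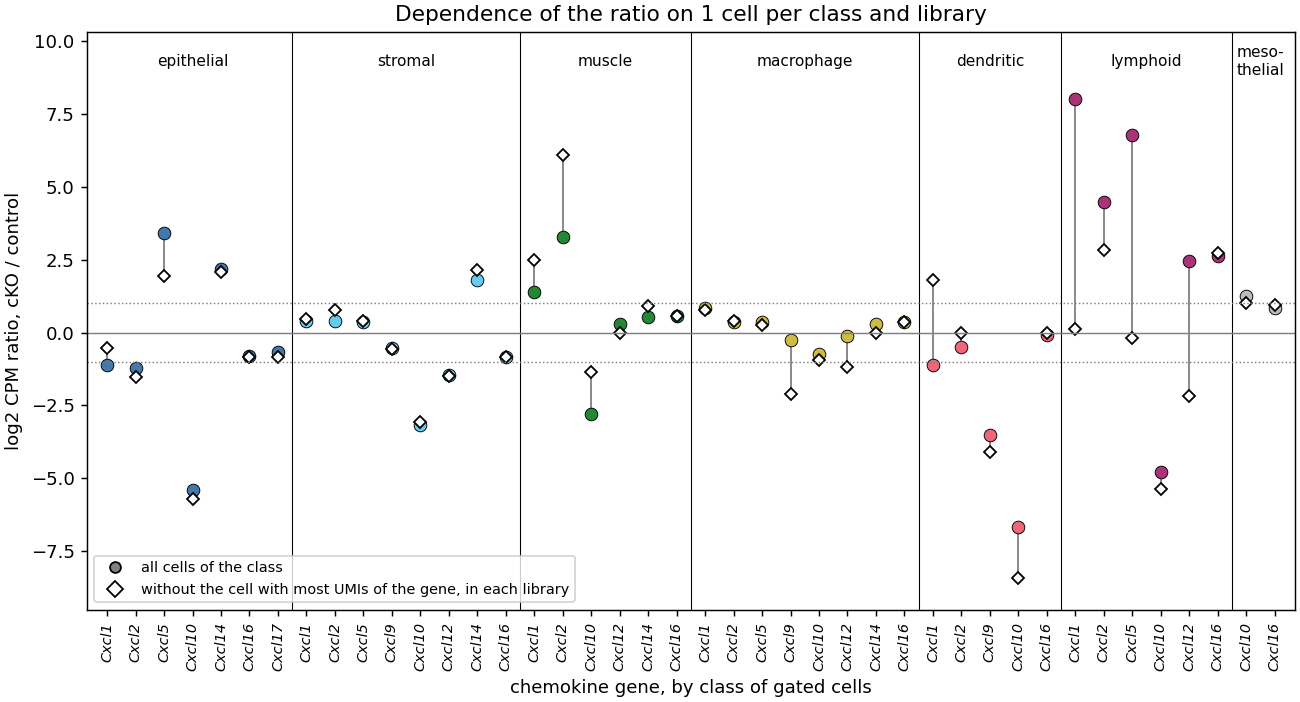
Log2 ratio of CPM, cKO over control (y axis), for each chemokine with at least 20 UMIs in a class (x axis), with all cells (filled circles) and without the cell that held most UMIs of the gene in each library (open diamonds; a count of 0 is set to 3). The diamonds lie farther from the circles than in stromal cells for many pairs in the other classes. Among these are Cxcl1, Cxcl2, Cxcl5 and Cxcl12 in lymphoid cells and Cxcl1, Cxcl2 and Cxcl10 in muscle cells. Others are Cxcl1 and Cxcl10 in dendritic cells, Cxcl5 in epithelial cells and Cxcl9 and Cxcl12 in macrophages.

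Cxcl10 (ENSMUSG00000034855; chr5:92346638-92348889, minus strand, GRCm38) was lower in cKO in 6 of the 7 classes, past 2-fold in 5. Control epithelial cells had 5073 UMIs (302.8 CPM, 294.6 to 311.3) and cKO epithelial cells 21 (7.14 CPM, 4.42 to 10.9), 42.4-fold lower (27.7 to 68.5). Dendritic cells had 337 UMIs in control (689 CPM) and 13 in cKO (6.76 CPM), 101.9-fold lower (58.8 to 193). Lymphoid cells had 100 and 11 UMIs (134.7 and 4.87 CPM), stromal cells 2080 and 737 (258 and 29.1 CPM), and muscle cells 61 and 19 (83.1 and 11.99 CPM). By fold the order was dendritic, epithelial, lymphoid, stromal and muscle, with intervals of neighbours overlapping between dendritic and epithelial, between epithelial and lymphoid, and between stromal and muscle cells. With cells kept in every class whose gate they met, the log2 ratios were -4.84 in dendritic, -4.14 in muscle and -3.35 in stromal cells. They were -2.81 in lymphoid and -2.55 in epithelial cells, so the order after dendritic cells depends on the gating. In control muscle 48 of the 61 UMIs came from 1 cell, which had 10938 CPM of dendritic and 940 CPM of muscle markers, against 19.4 and 9652 CPM in the others, and without the leading cells the muscle ratio was 0.395 (0.160 to 0.955).

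In macrophages the difference was smaller as summed. They had 3416 Cxcl10 UMIs in control (1812 CPM, 1751 to 1874) and 1061 in cKO (1101 CPM, 1035 to 1169), 1.65-fold lower (1.54 to 1.77). That interval lies apart from those of the epithelial, stromal, dendritic and lymphoid cells. With cells kept in every class whose gate they met, the macrophage difference was past 2-fold, at a log2 ratio of -1.37. The summed macrophage interval overlaps that of muscle cells once the leading cells are left out of the latter, as given above. Thinned shares of macrophages with Cxcl10 were 22.7% and 18.5%, with overlapping intervals. In epithelial cells they were 13.6% (11.4 to 15.9) and 0 of 100 cells, which allows a share of up to 3.00% by a count of 3 and 3.62% by the exact interval, and in stromal cells 7.21% (5.29 to 9.56) and 2.83% (2.03 to 3.81). Without thinning, 29.8% of control and 8% of cKO epithelial cells had a UMI, with medians of 6177 and 11053 UMIs per cell. In barcodes of 1 to 100 UMIs, taken as cell-free RNA, Cxcl10 was at 210.6 CPM (control) and 40.7 CPM (cKO), and cell-free RNA made up an estimated 0 to 6.08% of a class sum.

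Of the 7 classes, the mesothelial had more Cxcl10 in cKO, with 40 UMIs in 25 control cells (177 CPM) and 119 UMIs in 31 cKO cells (424 CPM), a ratio of 2.40 (1.66 to 3.52). The leading cell held 42.5% of these UMIs in control and 42.9% in cKO. Without these the ratio was 2.02 (1.24 to 3.40), and after thinning 3 control and 2 cKO UMIs were left, at a log2 ratio of -0.91. Thinned shares were 12.5% (2.66 to 32.4) and 6.67% (0.818 to 22.1) of the cells, with overlapping intervals, so no direction is read from them.

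**Figure D5:**
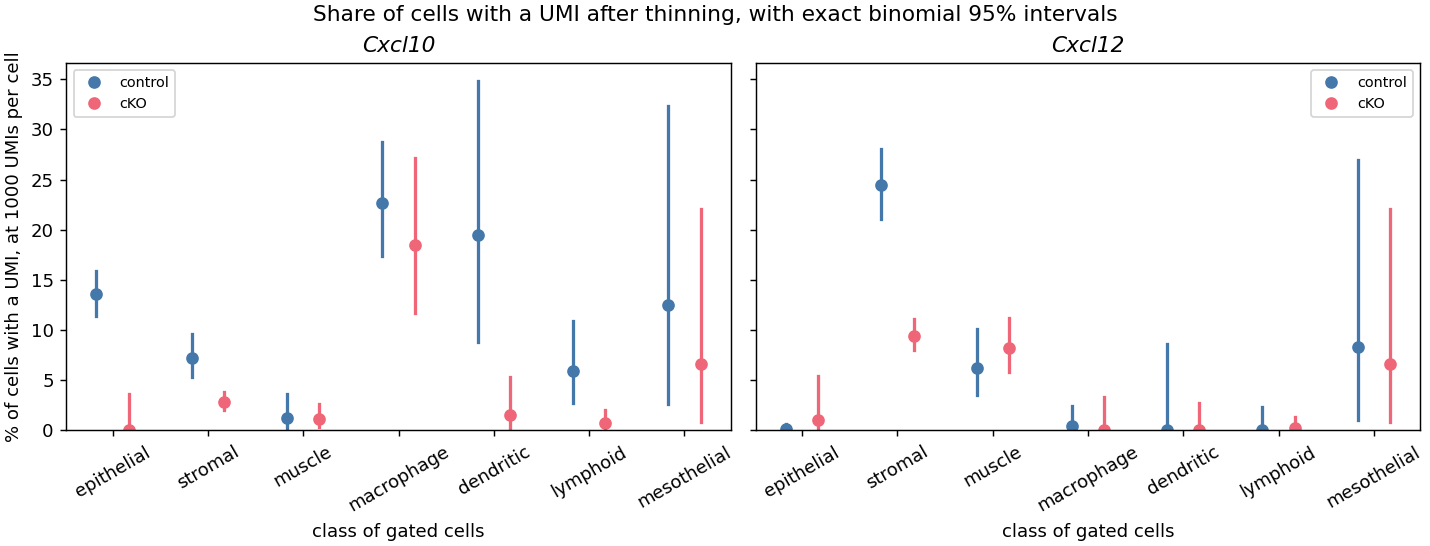
Share of cells with a Cxcl10 UMI (left) and a Cxcl12 UMI (right) after each cell was thinned to 1000 UMIs (y axis, %), by class, in control (blue) and cKO (red); points are shares and lines exact binomial 95% intervals. For Cxcl10 the intervals of the libraries lie apart in epithelial, stromal, dendritic and lymphoid cells, and for Cxcl12 in stromal cells.

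Control epithelial cells with a UMI of Ifnb1, the gene of interferon beta, had a higher level of Cxcl10 than those without. The 79 control epithelial cells with an Ifnb1 UMI had 929 CPM of Cxcl10 (893 to 966) at a median depth of 17602 UMIs, and the 864 without had 181 CPM (174 to 188) at a median of 5671. After thinning, 22 of 33 cells with Ifnb1 had Cxcl10, 66.7% (48.2 to 82.0), against 11.6% (9.61 to 13.9) of the others. Most Cxcl10 cells had no Ifnb1 UMI, with 22 of 127 thinned Cxcl10 cells holding one (17.3%), and 2542 of the 5073 Cxcl10 UMIs lay in cells without it. Ifnb1 had 889 UMIs in control epithelial cells and 0 in cKO ones, at least 52.0-fold lower. Even the control cells without an Ifnb1 UMI stood above the 7.14 CPM of cKO. The 79 cells with Ifnb1 also had 431 CPM of Cxcl16 against 301.5 CPM in the others, and 212 against 173 CPM of Cxcl17. After thinning, Cxcl16 was found in 6.06% of the cells with Ifnb1 and 20.9% of the others, so the share and the level of Cxcl16 point in opposite directions and no order is read from them. The cells with Ifnb1 had 0 UMIs of Cxcl9.

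Cxcl9 (ENSMUSG00000029417; chr5:92321347-92328079, minus strand) was scarcer than Cxcl10 and highest in dendritic cells and macrophages. Dendritic cells had 128 UMIs in control (262 CPM, 218 to 311) and 44 in cKO (22.9 CPM, 16.6 to 30.7), 11.4-fold lower (8.06 to 16.5). In control these UMIs lay in 5 of 41 cells, with 95.3% of them in 3 cells, and in cKO in 6 of 133. Without the leading cell of each library, 52 and 12 UMIs were left and the difference was 17.3-fold. Macrophages had 211 UMIs (112 CPM) and 91 (94.4 CPM), a ratio of 0.844 (0.652 to 1.08), but 75 of the 91 came from 1 cKO cell. Without the leading cells it was 4.34-fold lower in cKO macrophages. Cxcl9 led in dendritic cells in control and in macrophages in cKO. That order was kept without the leading cells, at 109 CPM in dendritic cells against 73.7 CPM in macrophages of control, and 6.32 against 16.97 CPM in cKO. These values rest on 52 and 138 UMIs in control and 12 and 16 UMIs in cKO, and no interval was set on their order. Thinned shares with Cxcl9 were 7.32% (1.54 to 19.9) and 2.26% (0.468 to 6.45) of dendritic cells and 5.33% and 1.85% of macrophages, with overlapping intervals in both classes.

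The interferon route was a list of 14 ligands, receptors and transducers. In epithelial cells, where Cxcl10 was lower and Cxcl9 had 12 and 0 UMIs, 7 of 13 route genes with at least 20 UMIs were at least 2-fold lower in cKO and none higher, against 10.5% and 25.1% of all genes there, with a median log2 ratio of -1.06. Stat2, a subunit of the interferon-activated factor, stood at 108 and 16.0 CPM in epithelial cells and at 180 and 37.5 CPM in dendritic cells. Ifngr1, a chain of the interferon gamma receptor, was at 42.2 and 169 CPM in muscle cells. In stromal cells 3 of 12 route genes were lower, against 6.70% of all genes, and 9 within 2-fold. In macrophages 1 of 12 was higher and 1 lower, against 10.0% and 4.86%. Of the dissociation stress genes, 3 of 9 were at least 2-fold lower in cKO epithelial cells, against 10.5% of all genes, and 4 of 9 at least 2-fold higher in cKO dendritic cells, against 19.1%, with Hspa1b at 53.1 and 922.7 CPM, Hspa1a at 42.9 and 392 CPM and Egr1 at 16.3 and 104.5 CPM there. Their part in the Cxcl9 and Cxcl10 values was not tested.

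Cxcl12 (ENSMUSG00000061353; chr6:117168535-117181367, plus strand) was a stromal and muscle transcript. Stromal cells had 2717 UMIs in control (337.6 CPM, 325.1 to 350.6) and 3115 in cKO (122.8 CPM, 118.6 to 127.2), 2.75-fold lower (2.61 to 2.89). Muscle cells had 75 and 199 UMIs, 102 and 126 CPM, a ratio of 1.23 (0.938 to 1.62). Stroma therefore led in control by 3.30-fold, while in cKO the 2 classes lay within counting error of each other. A single cKO muscle cell held 27.6% of the muscle UMIs, and without the leading cells stroma led in cKO too, at 120 against 93.9 CPM. Thinned shares of stromal cells with Cxcl12 were 24.4% (21.1 to 28.0) and 9.44% (7.99 to 11.1), against 0.107% of control and 1.00% of cKO epithelial cells. Unthinned, 62.7% and 49.0% of stromal cells had a UMI at median depths of 11791 and 15651 UMIs.

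The stromal Cxcl12 difference was not carried by few cells. The leading cell held 1.62% of the stromal UMIs in control and 2.25% in cKO, and the log2 ratio lay between -1.54 and -1.32 over the 11 alternatives to the processing. Over all cells the ratio was 0.863 (0.825 to 0.903), where stromal cells were 16.97% of control and 29.5% of cKO cells. In cKO stroma Cxcl12 was found in 15.9% (11.4 to 21.4) of thinned cells with Cxcl1 and 8.24% (6.77 to 9.93) of those without. In control these shares were not apart beyond their intervals. Ackr3, the scavenger receptor of Cxcl12, differed the other way in stroma, at 84.8 and 242.6 CPM, a ratio of 2.86 (2.64 to 3.10).

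Cxcl14 (ENSMUSG00000021508; chr13:56288643-56296551, minus strand) was higher in cKO stromal cells, with 77 UMIs in control (9.57 CPM) and 852 in cKO (33.6 CPM), a ratio of 3.51 (2.78 to 4.49). Epithelial cells had 104 and 83 UMIs, 6.21 and 28.2 CPM, a ratio of 4.55 (3.37 to 6.13). In the cKO epithelial gate 3 cells with at least 10 UMIs held 43.4% of them, and the ratio was 4.18 without the leading cells. By per-cell means the epithelial log2 ratio was 1.06. No class led for Cxcl14: the neighbours were mesothelial and muscle cells in control, at 17.7 and 12.3 CPM, and stromal and epithelial cells in cKO, all within counting error. Thinned shares of stromal cells were 0.328% (0.0397 to 1.18) in control and 2.14% (1.46 to 3.02) in cKO. Those of epithelial cells were 0.641% (0.236 to 1.39) and 2.00% (0.243 to 7.04), with overlapping intervals. The 18 cKO stromal cells with at least 10 UMIs had 8333 CPM of stromal, 845 CPM of muscle and 203 CPM of epithelial markers, against 12534, 584 and 4.79 CPM in the others.

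Cxcl16 (ENSMUSG00000018920; chr11:70453983-70459984, minus strand) was the most widely held member, found in 48.3% of control and 30.8% of cKO cells before thinning. Macrophages had 713 CPM in control and 908 in cKO, and dendritic cells 652 and 620 CPM. These 2 classes lay within counting error in control and 1.46-fold apart in cKO. Thinned shares in them were 41.5% to 46.7% over both libraries. In epithelial cells Cxcl16 had 5404 UMIs (322.6 CPM) and 549 (187 CPM), 1.73-fold lower in cKO (1.58 to 1.89). In stromal cells it had 2708 UMIs (337 CPM) and 4742 (187 CPM), a ratio of 0.556 (0.530 to 0.583). Both differences lay under 2-fold and beyond counting error as summed. The epithelial one was past 2-fold by per-cell means (log2 -1.43), thinned (-1.83) or with TMM factors (-1.30), and thinned shares of epithelial cells with Cxcl16 were 20.4% (17.9 to 23.1) and 7% (2.86 to 13.9). The 85 cKO epithelial-gate cells with under 10 Cxcl16 UMIs had 4236 CPM of B or plasma, 907 CPM of lymphoid and 4788 CPM of epithelial markers, where the matching control cells had 2.41, 31.4 and 9383 CPM, and the part of these cells in the shares and means was not tested. The stromal one stayed under 2-fold in all 11 alternatives.

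Cxcl17 (ENSMUSG00000060188; chr7:25400053-25412886, minus strand), a chemokine of mucosal surfaces, was epithelial in both libraries. Epithelial cells had 3004 UMIs in control (179 CPM, 173 to 186) and 333 in cKO (113 CPM, 101 to 126), 1.58-fold lower (1.41 to 1.78). It was past 2-fold by per-cell means (log2 -1.71), thinned (-1.71), with TMM factors (-1.17) and with cells kept in every class (-1.40), so its size depends on how cells are weighted, chosen and scaled. All other classes were at or under 2.73 CPM in control and 0.0394 CPM in cKO. Epithelial cells held 85.9% and 88.8% of its UMIs, the rest lying mostly in cells of several gates. Thinned shares of epithelial cells were 13.1% (11.04 to 15.5) and 5.00% (1.64 to 11.3), against 0 of 610 and 0 of 1451 stromal cells. The 88 cKO epithelial-gate cells with under 10 Cxcl17 UMIs likewise had 3685 CPM of B or plasma markers, against 1.58 CPM in control. In cell-free RNA it was at 74.5 CPM (control) and 4.38 CPM (cKO), and control stromal cells had 0.497 CPM.

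Among the receptors, 4 of 8 measured genes were at least 2-fold higher in cKO over all cells and none lower, against 13.1% and 12.7% of all genes. Lymphoid cells, the class used for Cxcr3 and Cxcr6, were 4.24% of control and 8.57% of cKO cells, so these values hold the mix of cells too. Cxcr2, the receptor of Cxcl1, Cxcl2 and Cxcl5, had 45 UMIs in all control and 98 in all cKO cells, and Cxcr1 had 1 and 0. The neutrophil list was at most 59.1 CPM in any gated class, but no gate was set on neutrophil genes. In cells of no gate it was at 89.2 CPM in control and 8.17 CPM in cKO. Of its 5 genes, 1 was at 0 in control macrophages (S100a9) and 2 in cKO macrophages (S100a9 and Retnlg). Cxcr3, the receptor of Cxcl9 and Cxcl10, stood at 97.0 CPM in control and 42.5 CPM in cKO lymphoid cells, 2.28-fold lower (1.66 to 3.13). Cxcr6, the receptor of Cxcl16, was at 805 and 1310 CPM there, a ratio of 1.63 (1.49 to 1.78). Cxcr4 was at 487.5 and 616 CPM in lymphoid and 29.98 and 76.4 CPM in muscle cells, where Ackr3 had 4 and 74 UMIs, 5.45 and 46.7 CPM.

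Of other CXC ligands, 4 were measured. Cxcl3, a close relative of Cxcl1 and Cxcl2 whose 3-prime reads could be shared with them, was at 2417 and 3645 CPM in macrophages, a ratio of 1.51 (1.44 to 1.58). In muscle cells it had 1 UMI in control and 463 in cKO, in the gate where Cxcl2 rested on 4 cells with macrophage and dendritic markers, and in lymphoid cells 5 and 181 UMIs. Ppbp, a platelet and myeloid chemokine, was at 15.4 and 245 CPM in macrophages and 13.3 and 123 CPM in epithelial cells, and Pf4 at 2847 and 3120 CPM. Cxcl13, which draws B cells, had 59 and 77 UMIs in macrophages, a ratio of 2.55 (1.79 to 3.65).

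Of the 15 genes of the NF-kappaB and IL-17 route, 14 were measured in macrophages, where 3 were at least 2-fold higher in cKO and none lower, against 10.0% and 4.86% of all genes. Tnf stood at 222 and 1055 CPM there. Il1b, the gene of interleukin-1 beta, had 1 UMI in control and 228 in the cKO muscle gate, and 0 and 303 in the lymphoid gate, at least 33.2-fold higher. Dendritic markers were at 194 CPM in control and 355 CPM in cKO in the muscle gate, and at 80.8 and 396 CPM in the lymphoid gate. Macrophage markers were at 23.2 and 25.9 CPM in the muscle gate and at 10.8 and 8.42 CPM in the lymphoid gate. The part of such cells in the Il1b values was not tested. In stromal cells none of 14 was past 2-fold, against 12.8% of all genes, and in epithelial cells 5 of 14 were lower and none higher, against 10.5% and 25.1%. In lymphoid cells Il17a had 3 UMIs in control (4.04 CPM) and 116 in cKO (51.4 CPM), a ratio of 12.7 (4.25 to 62.6). Of the genes that process or present chemokines, the heparan sulphate carrier Sdc1 was at 45.6 and 95.2 CPM in stromal and 13.9 and 46.3 CPM in epithelial cells, and lower in cKO macrophages, at 29.2 and 12.4 CPM. The epithelial gate held 1.13 CPM of B or plasma cell markers in control and 1683 CPM in cKO, and the part of such cells in its Sdc1 values was not tested. Dpp4, a protease that trims Cxcl9, Cxcl10 and Cxcl12, was at 71.5 and 31.7 CPM in dendritic cells.

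Likeness between genes was taken as Pearson's r of log2(CPM + 1) over 14 sums, 7 classes in each of 2 libraries, among 11442 genes. These points share libraries and classes, and r is a description with no test. Cxcl1 was most like Cxcl5 (r = 0.91) and Vcam1 (0.90), and Cxcl2 most like Nr1h3 (0.94) and Lyz2 (0.92). Cxcl10 was most like Ifit3b (0.91) and Ifit3 (0.89), both interferon-induced genes, and Cxcl9 most like Snx10 (0.93). The remaining members paired with Emilin1 (Cxcl12, 0.96), A4galt (Cxcl14, 0.93), Rab32 (Cxcl16, 0.94) and Esrp1 (Cxcl17, 0.99). Among the members themselves r ran from -0.52 for Cxcl12 with Cxcl17 to 0.91 for Cxcl1 with Cxcl5, and Cxcl9 with Cxcl10 reached 0.58.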

How the data were processed

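The deposited values were raw counts of UMIs per gene and barcode, with empty barcodes included. The matrix headers name Cell Ranger 4, and the submitters' processing notes name Cell Ranger 6.1.1 and build mm10; other steps are not given in the sources used here. Groups came from the sample titles. The members, gene lists and gates were chosen with earlier results of these data known. All members were named, and of each other list the 4 largest differences with at least 50 UMIs in a class. Receptors of the members and Cxcl3, Cxcl13, Pf4 and Ccl21a in the classes given were added after their values were seen. Counts were summed per class and library as CPM with exact Poisson intervals, ratios with exact conditional binomial intervals, and shares with Clopper-Pearson intervals. A ratio needed at least 20 UMIs over both libraries, and a count of 0 was set to 3. No test was possible, since each group is 1 library. Cells of several gates were left out of classes, and Scrublet doublets (score above 0.25, scanpy 1.11.5) were removed in an alternative only. Other alternatives changed gates, cell filters, cell weights, depth, scaling (TMM, edgeR 4.0.16), cell-free RNA, the UMI minimum, or left out the leading cell. Scripts ran in Python 3.11.15 and were tested on simulated data. Gene positions come from GENCODE M21 on GRCm38, which held 99.6% of the gene identifiers.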

Additional observations from a re-analysis of the deposited data

Results flagged for a closer look

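Of the members, 4 were at least 2-fold higher in cKO in some classes and at least 2-fold lower in others. The difference between classes was not tested, since each class has 1 library a group. Cxcl10 had log2 ratios of -5.41 in epithelial, -3.15 in stromal, -2.79 in muscle, -6.67 in dendritic and -4.79 in lymphoid cells and of 1.26 in mesothelial cells, which numbered 25 and 31. Cxcl1 had log2 ratios of -1.12 in epithelial and -1.09 in dendritic cells, of 1.39 in muscle cells from 3 and 17 UMIs, and of 8.01 in lymphoid cells, where 98.7% of the cKO UMIs lay in 1 cell. Cxcl2 had log2 ratios of -1.23 in epithelial, 3.28 in muscle and 4.49 in lymphoid cells, with 91.2% of the cKO lymphoid UMIs in that same cell. Cxcl12 was at -1.46 in stromal cells and at 2.46 in lymphoid cells, a bound against 0 control UMIs, with 96.0% of the cKO UMIs in that cell.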

How the results depend on the processing

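No paired analysis was possible because each group has 1 library. The count of members at least 2-fold different stayed within 1.5 times its value in stromal cells (3) under every alternative run. Of the 18 leading classes, 14 to 18 were kept: Cxcl12 in cKO led in stromal in place of muscle cells under 6 alternatives, Cxcl14 in control led in muscle in place of mesothelial cells with at least 1000 genes per cell, and thinning left Cxcl14 (control), Cxcl9 and Cxcl17 (both cKO) under the minimum of UMIs. The count of members at least 2-fold different was 5 in epithelial cells, and 3 with cells thinned. In muscle cells it was 3, with 1 by the mean of per-cell CPM and 0 thinned. In macrophages it was 0, with 1 by gates of at least 2 UMIs, per-cell means, thinning or no minimum of UMIs, and 2 with cells kept in every class they met or without the leading cell. In dendritic cells it was 3, with 6 in every class, 1 thinned and 5 with no minimum. In lymphoid cells it was 6, with 2 by the stricter gate and 3 thinned or without the leading cell. In mesothelial cells it was 1, with 2 in every class, 0 thinned and 3 with no minimum. Of log2 ratios past 2-fold, 13 values changed sign. With cells kept in every class they met, they were 1.59 (Cxcl1) and 0.42 (Cxcl2) in epithelial, -1.08 (Cxcl2) in muscle, 2.03 (Cxcl1) in dendritic, and -0.51 (Cxcl2), -1.42 (Cxcl12) and -0.23 (Cxcl16) in lymphoid cells. Thinned, they were 0.64 (Cxcl1) and 0.16 (Cxcl2) in epithelial, 0.11 (Cxcl1) in dendritic and -0.91 (Cxcl10) in mesothelial cells, the last from 3 and 2 UMIs. The other 2 were 1.81 (Cxcl1, dendritic, without the leading cell) and 0.038 (Cxcl1, epithelial, per-cell means). A further 5 lymphoid values are lower bounds with 0 control and 1 to 8 cKO UMIs and show no change of direction: -0.18 (Cxcl5) and -2.18 (Cxcl12) without the leading cell, -3.04 (Cxcl12) and -1.46 (Cxcl16) thinned, and -3.32 (Cxcl12) by the stricter gate. Ratios under 2-fold changed sign in 22 values (1 of them a bound), among them Cxcl2 in dendritic (up to 0.57), Cxcl9 in stromal (up to 0.75), Cxcl16 in muscle (down to -0.75) and mesothelial (-0.42) and Cxcl12 in muscle cells (-0.22). The cause was not tested, beyond the cell left out. Cxcl10 kept its direction in all 11 alternatives in epithelial (-6.23 to -2.55), stromal (-3.35 to -2.66) and dendritic cells (-8.43 to -4.84). TMM factors shifted log2 ratios by 0.51 in epithelial cells, where the direction of no member turned, and by 0.22 in macrophages.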
